A study of Mus musculus with 6 samples.

Results

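Genes of cholesterol synthesis and of fatty acid handling were followed in lung CD4 T cells of mice exposed to house dust mite (HDM), which is given to mice as a model of allergic asthma. The set was chosen by known function: 46 genes in 7 branches, which were the enzymes of cholesterol synthesis, sterol sensing, sterol efflux, fatty acid synthesis with desaturation and elongation, fatty acid uptake with binding and storage, acyl-CoA synthetases, and fatty acid oxidation. Of these, 42 were measured by a probe set that carried exactly 1 gene symbol, among 22180 genes tested, and none was filtered for low signal. Idi1, Scd2, Acsl1 and Acsl3 were not analysed here. Both this set and the lists used below were chosen with earlier results of these data known. Shares set beside those of all genes are therefore descriptive only.

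Both groups were wild-type mice, sensitised and then challenged with HDM or, as controls, with PBS, a buffered saline (strain, age, dose and times are not stated in the labels). Lung cells were digested and sorted as CD45+ CD4+ cells negative for 2 myeloid surface proteins, CD11b and the product of Adgre1. Each group had 3 samples titled as biological replicates, numbered 1 to 3, with 1 whole-transcript Affymetrix array per sample. The number of mice behind a sample is not stated either, so a p-value here speaks only to the spread among these arrays, which may be partly technical, and precision is limited by their number. Values are log2 signals, so a difference of 1 is a 2-fold change; levels of different genes were not compared.

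The array medians lay between 6.57 and 6.64. Cd4, the gene of the sorted surface protein, read between 12.47 and 12.73 in all 6 arrays. Same-numbered arrays deviated together from their group means for numbers 1 and 3 (correlations over all genes of 0.43 and 0.53). Those numbered 2 did so less (0.17, below the 0.25 of PBS replicate 1 with HDM replicate 2). The number was therefore also fitted as a block, which compares HDM with PBS within arrays of the same number, and that value is given where it changes a call. The labels do not say what the numbers stand for. The pairing rests on these same data, so calls made only with the block are less sure and their p-values may be too small.

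Cells make cholesterol from acetyl-CoA through mevalonate, farnesyl pyrophosphate, squalene and lanosterol. When membrane sterol is low, SCAP carries the SREBP transcription factors out of the endoplasmic reticulum and they switch on the synthesis enzymes; INSIG proteins hold them back when sterol is high. Excess sterol leaves through the transporters ABCA1 and ABCG1, whose genes are switched on by the oxysterol receptors of the LXR family. T cells that divide need new membrane lipid, while resting and memory T cells rely more on the burning of fatty acids in mitochondria.

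The stretches before the gene starts of 4 sterol genes are shown because the synthesis enzymes share a short motif there. These genes also differ in how they moved: Nsdhl rose, Abca1 fell, and Mvk lay lower in HDM while most enzymes lay higher. Hmgcs1 carries the only match to the sterol element among the measured members for which the RefSeq table held a sequence. The stretches are RefSeq sequences of GRCm38.p6, 5′ to 3′ on the gene's strand. They end at the start or, for Mvk and Abca1, before the first base of any RefSeq model of the gene. Capitals mark the motifs searched: CCAAT or its complement ATTGG, the box bound by NF-Y, CACGTG, the E-box, and TCACNCCAC, the core of the element bound by SREBP, each on both strands.
Nsdhl (chrX:72918271-72918520, + strand): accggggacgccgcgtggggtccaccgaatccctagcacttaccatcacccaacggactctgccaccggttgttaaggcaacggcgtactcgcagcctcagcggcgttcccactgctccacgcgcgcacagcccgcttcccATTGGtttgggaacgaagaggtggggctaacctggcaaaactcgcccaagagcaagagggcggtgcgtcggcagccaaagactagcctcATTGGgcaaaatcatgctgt
Hmgcs1 (chr13:119690101-119690350, + strand): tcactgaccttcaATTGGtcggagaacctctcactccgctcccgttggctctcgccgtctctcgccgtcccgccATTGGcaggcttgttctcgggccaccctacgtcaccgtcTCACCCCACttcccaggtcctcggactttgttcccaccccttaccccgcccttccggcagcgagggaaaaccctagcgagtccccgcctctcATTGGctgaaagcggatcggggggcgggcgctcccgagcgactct
Mvk (chr5:114444019-114444263, + strand): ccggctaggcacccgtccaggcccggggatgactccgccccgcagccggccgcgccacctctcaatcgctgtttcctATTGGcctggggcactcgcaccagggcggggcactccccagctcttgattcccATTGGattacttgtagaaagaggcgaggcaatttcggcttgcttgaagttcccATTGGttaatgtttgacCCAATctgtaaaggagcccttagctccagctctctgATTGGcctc
Abca1 (chr4:53159989-53160145, - strand): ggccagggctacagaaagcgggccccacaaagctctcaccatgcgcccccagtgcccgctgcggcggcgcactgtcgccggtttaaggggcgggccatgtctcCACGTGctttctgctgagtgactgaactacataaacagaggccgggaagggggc

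In the 250 bases before a start, all 10 cholesterol synthesis genes that the RefSeq table held had a CCAAT box in at least 1 window, against 37.5% of the 27025 genes with a window. Mvk had 5 of them, Hmgcs1 had 3 and Nsdhl had 2. Among all members with a window, 22 of 34 had the box, including 4 of 5 sensing genes and 1 of 6 oxidation genes, Cpt1a. The sterol element core was found for Hmgcs1, on the gene's strand at 137 to 129 bases before the start, and for Acsl1, against 1.22% of all genes. The Abca1 window held an E-box at 147 to 142 bases before its start and no CCAAT box; 6.86% of all genes had an E-box there. Plin2 had a CCAAT box at 73 to 69 bases before its start. Abcg1, Fdft1, Fdps, Sqle, Fabp4, Fabp5, Lpl, Scd1, Scd2, Fads1, Dgat1 and Dgat2 had no entry in the table and were not searched. A match is a stretch of letters, and no binding was measured here.

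Of the 42 measured members, 4 passed at an adjusted p below 0.05 (limma, Benjamini-Hochberg over all genes). Plin2, a coat protein of lipid droplets, and Nsdhl, an enzyme that removes methyl groups from lanosterol-derived sterols, rose. Both sterol exporters, Abca1 and Abcg1, fell. The 2 raised members were 4.76% of those measured, against 2.39% of all genes raised, and the 2 lowered were 4.76%, against 1.56%.

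With the replicate block 7 members were higher (16.7%, against 5.95% of all genes) and 7 were lower (16.7%, against 6.01%). The 3 HDM values lay above the 3 PBS values in 8 members (19.0%, against 10.8% of all genes) and below them in 4 (9.52%, against 11.8%). The median difference over the 42 was 0.10, beside −0.01 over all genes, and 30 of the 42 differences were above 0 (71.4%, against 48.4% of all genes). These counts moved with the arrays included: of the 4 calls only that of Plin2 held with any 1 array left out, and without both arrays numbered 3 there were 8 higher and 6 lower, when 5.64% and 5.98% of all genes passed in those directions. With the block and without both arrays numbered 1, 2 members were higher and 1 was lower (1.85% and 1.16% of all genes). Without those numbered 2 the counts were 5 and 3 (4.18% and 2.78%), and without those numbered 3 they were 11 and 7 (8.43% and 9.19%). Over these 3 fits the calls among all genes and among the members moved in the same order.

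**Figure D1:**
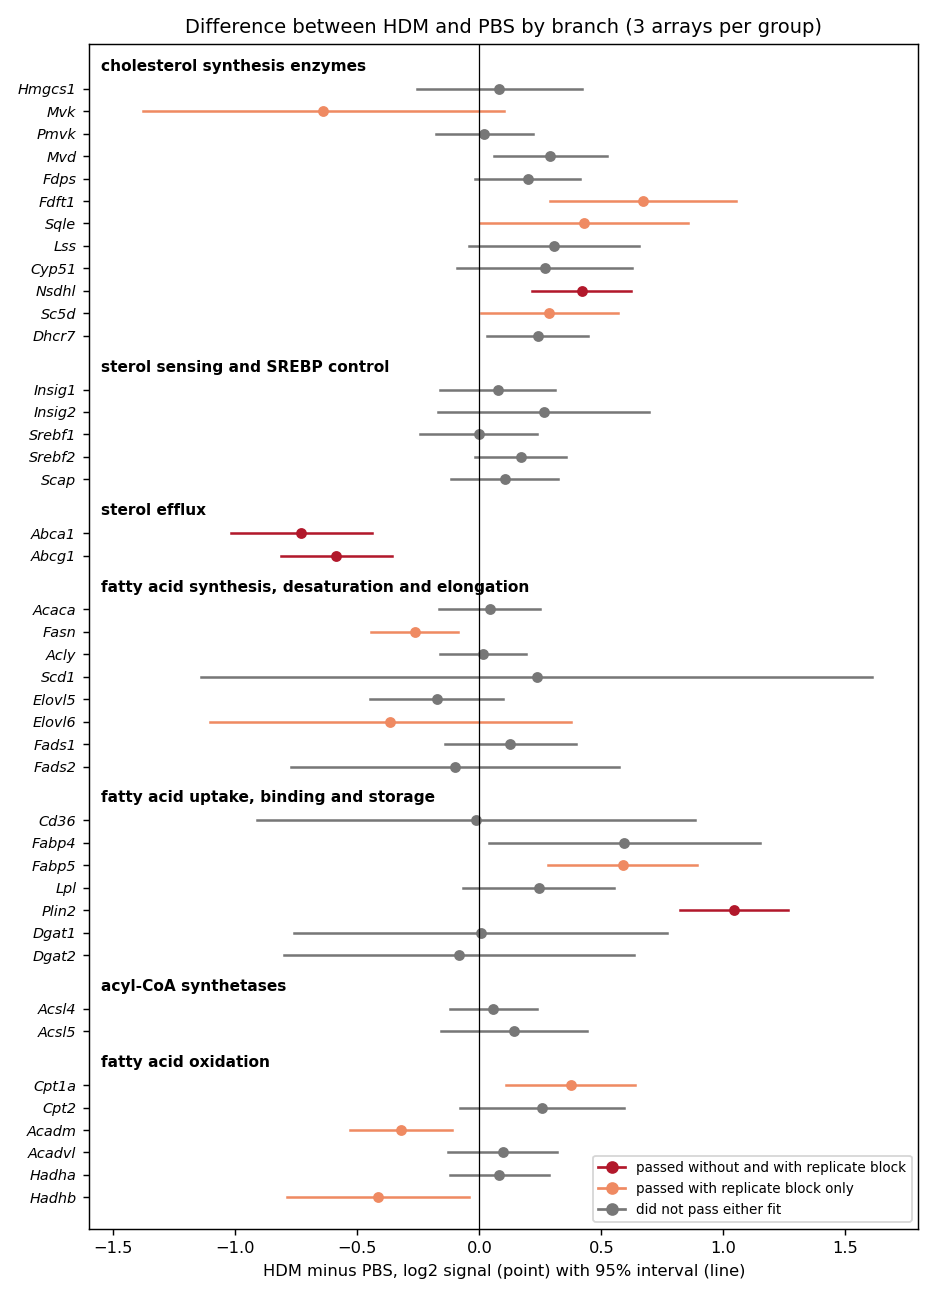
HDM minus PBS difference of each of the 42 measured members on the log2 scale (x axis; point, with its 95% interval from limma without a block as a line), grouped by branch. Dark red marks the 4 members that passed without and with the replicate block, orange the 10 that passed with the block only, and grey the 28 that passed in neither; Plin2 lies farthest right at 1.04 and Abca1 farthest left at −0.73.

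Of the 12 measured enzymes of cholesterol synthesis, 1 rose and 11 did not pass, and with the block 4 were higher and 1 was lower. The median difference of the branch was 0.28, and 11 of 12 differences were above 0 (91.7%, against the same 48.4%). The 4 higher with the block were 33.3% of the branch, beside 5.95% of all genes. Within arrays of the same number the branch median was 0.34, 0.23 and 0.32. Among the early steps around mevalonate, Hmgcs1, which makes HMG-CoA, differed by 0.08 (95% interval −0.26 to 0.42), and Pmvk, the phosphomevalonate kinase, by 0.02 (−0.18 to 0.22).

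Mvk, the mevalonate kinase between these, read 8.24, 8.34 and 9.23 in HDM replicates 1, 2 and 3 and 8.86, 9.04 and 9.84 in the PBS replicates. The groups overlapped because both arrays numbered 3 were high, but each HDM array was lower than the PBS array of its number (differences of −0.62, −0.69 and −0.61). The mean difference of −0.64 ± 0.32 (SE) did not pass (adjusted p = 0.358) and passed with the block (adjusted p = 0.0027). Mvd, the decarboxylase that ends the mevalonate steps, lay above PBS in all HDM arrays (0.29 ± 0.10, adjusted p = 0.172), as did Fdps, the farnesyl pyrophosphate synthase (0.20 ± 0.09, adjusted p = 0.325).

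Fdft1, squalene synthase, which commits farnesyl pyrophosphate to sterols, read 10.03, 10.08 and 9.58 in HDM and 9.36, 9.35 and 8.96 in PBS. All HDM values lay above all PBS values, and both arrays numbered 3 were the low ones of their groups. The difference of 0.67 ± 0.16 was 1.59-fold and just missed the threshold (adjusted p = 0.0705); Fdft1 passed without HDM replicate 3 (adjusted p = 0.0138) and with the block (adjusted p = 0.00181). Sqle, squalene epoxidase, the next enzyme, read 8.33, 8.63 and 8.02 in HDM and 7.97, 8.11 and 7.61 in PBS. Its groups overlapped through HDM replicate 3, and its 3 differences within numbers were 0.36, 0.52 and 0.41 (mean 0.43 ± 0.18, adjusted p = 0.275, 0.0186 with the block).

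After lanosterol, Nsdhl read 9.76, 9.87 and 9.89 in HDM and 9.35, 9.42 and 9.50 in PBS. The groups did not overlap, and each group's values lay within a narrow range. Nsdhl rose 1.34-fold (0.42 ± 0.09, adjusted p = 0.0418), but leaving out an array lost this call in 5 of 6 cases, all except PBS replicate 3 (highest adjusted p 0.179). Sc5d, a desaturase near the end of the path, read 10.17, 10.12 and 9.82 in HDM and 9.79, 9.86 and 9.60 in PBS. HDM replicate 3 lay inside the PBS range (0.29 ± 0.12, adjusted p = 0.266, 0.0392 with the block). Lss, lanosterol synthase, Cyp51, the lanosterol demethylase, and Dhcr7, the last enzyme, differed by 0.31, 0.27 and 0.24 and passed in neither fit, although the 3 HDM values of Dhcr7 lay above PBS.

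**Figure D2:**
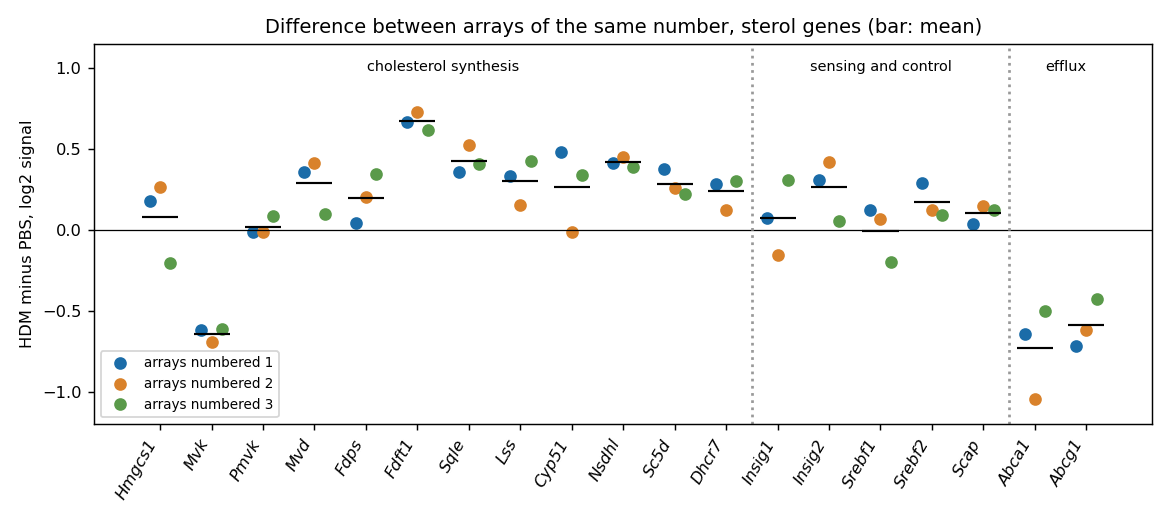
HDM minus PBS on the log2 scale (y axis) for the sterol genes in pathway order (x axis), 1 point for each pair of arrays with the same replicate number and a bar for their mean. All 3 points lie above 0 for Mvd, Fdps, Fdft1, Sqle, Lss, Nsdhl, Sc5d, Dhcr7, Insig2, Srebf2 and Scap. They lie below 0 for Mvk, Abca1 and Abcg1, and on both sides of 0 for Hmgcs1, Pmvk, Cyp51, Insig1 and Srebf1.

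The 6 other measured genes of sterol synthesis gave 0 calls (limma, 4 had an unadjusted p below 0.05). Their median difference was 0.02, and 3 of the 6 lay above 0 (50%, against 48.4% of all genes). With the block 2 were higher (33.3%, against 5.95% of all genes) and 1 was lower (16.7%, against 6.01%). The 2 higher were Ebp, a sterol isomerase (0.43, adjusted p = 0.0117), and Hsd17b7, a ketoreductase that works with Nsdhl (0.32, adjusted p = 0.0411). The lower one was Ggps1, which turns farnesyl pyrophosphate to protein prenylation (−0.37, adjusted p = 0.0153). Msmo1, Tm7sf2 and Lbr differed by 0.06, −0.02 and −0.25 and passed in neither fit. Of 11 measured proliferation genes 0 passed in limma without the block (2 at an unadjusted p below 0.05). Their median difference was 0.30, and 10 of the 11 lay above 0 (90.9%, against 48.4% of all genes). With the block 4 were higher (36.4%, against 5.95% of all genes), among them Mki67 (0.64, adjusted p = 0.187, 0.00412 with the block). The summed signal of the 11, relative to the PBS mean, was 0.972 to 1.34 in HDM and 0.937 to 1.07 in PBS. The part of dividing cells in the enzyme differences was not tested.

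None of the 5 genes of sterol sensing passed with limma, without or with the block, and 0 had an unadjusted p below 0.05. Insig2, an anchor of SCAP, read 8.64, 8.69 and 8.04 in HDM and 8.33, 8.27 and 7.99 in PBS, with both arrays numbered 3 low and the groups overlapping. Its difference was 0.26 ± 0.19 (95% interval −0.17 to 0.69). Srebf2, the SREBP gene with the larger role in cholesterol synthesis, read 11.19, 11.18 and 11.04 in HDM and 10.90, 11.06 and 10.95 in PBS. Only HDM replicate 3 lay inside the PBS range, and the difference was 0.17 ± 0.08 (95% interval −0.02 to 0.36). Insig1, a target of the SREBPs, Scap and Srebf1 differed by 0.08, 0.10 and −0.0032, and the interval of Srebf1 was −0.24 to 0.24.

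Both exporters fell. Abca1, which hands cholesterol to lipid-poor apolipoprotein, read 8.68, 8.41 and 8.86 in HDM and 9.32, 9.45 and 9.36 in PBS. The groups did not overlap, with HDM replicate 2 the lowest. The level was 1.66-fold lower (−0.73 ± 0.13, adjusted p = 0.0213). Abcg1, which passes cholesterol to lipoprotein particles, read 10.25, 10.14 and 10.23 in HDM and 10.97, 10.76 and 10.65 in PBS. The HDM values were close together and all lay below PBS, a 1.50-fold lower level (−0.59 ± 0.10, adjusted p = 0.0193). Each call was lost without either array numbered 1 or either array numbered 2 (adjusted p of up to 0.116 for Abca1 and 0.0968 for Abcg1), while over all 6 such fits the differences stayed between −0.83 and −0.50.

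Of 11 other measured genes of sterol uptake, trafficking and esters, 1 fell (9.09%, against 1.56% of all genes) and 10 did not pass. It was Mylip, the ubiquitin ligase IDOL that degrades lipoprotein receptors. Mylip read 9.50, 9.30 and 9.85 in HDM and 10.42, 10.43 and 10.55 in PBS, with no overlap. It fell by 0.92 (SE 0.14, adjusted p = 0.0135), a call lost without HDM replicate 1 or PBS replicate 1 or 2 (adjusted p of up to 0.0722). With the block 2 were higher (18.2%, against 5.95% of all genes), Ch25h and Nceh1, which make an oxysterol and break cholesterol esters (0.57 and 0.51). The 2 lower with it (18.2%, against 6.01% of all genes) were Mylip and Lipa, the lysosomal lipase (−0.26 for Lipa). Nr1h3, which encodes an LXR, differed by 0.01 (adjusted p = 0.98). Nr1h2, which encodes the other LXR, was not measured by a probe set of exactly 1 gene symbol.

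Fatty acid synthesis showed 0 calls among its 8 measured genes (limma, 1 had an unadjusted p below 0.05). With the block 2 were lower (25%, against 6.01% of all genes). The branch median was −0.04, and 4 differences lay on each side of 0. Fasn, fatty acid synthase, read 10.07, 10.15 and 10.13 in HDM and 10.39, 10.44 and 10.32 in PBS, with no overlap. The difference was −0.27 ± 0.08 (adjusted p = 0.117, 0.041 with the block). Elovl6, which lengthens palmitate, read 9.26, 9.43 and 10.25 in HDM and 9.56, 9.85 and 10.62 in PBS. Both arrays numbered 3 were high and the groups overlapped, and its difference of −0.36 ± 0.32 passed with the block (adjusted p = 0.637, 0.0162 with the block).

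Acly and Acaca, which supply cytosolic acetyl-CoA and malonyl-CoA, differed by 0.01 and 0.04 with 95% intervals of −0.16 to 0.19 and −0.16 to 0.25. Elovl5, Fads1 and Fads2, the elongase and desaturases of polyunsaturated fatty acids, differed by between −0.17 and 0.13. Scd1, the stearoyl-CoA desaturase, read 6.85, 7.96 and 9.28 in HDM and 7.02, 7.83 and 8.54 in PBS. It spanned more than 2 log2 units within the HDM group, so the difference of 0.24 had a 95% interval of −1.14 to 1.61. Among 10 other genes of fatty acid synthesis 1 fell (10%, against 1.56% of all genes) and 9 did not pass. It was Acss2, which makes acetyl-CoA from acetate (9.23, 9.10 and 8.98 in HDM, 9.63, 9.63 and 9.46 in PBS). Its groups did not overlap (−0.47 ± 0.10, adjusted p = 0.0482), and the call was lost when any 1 array was left out (adjusted p between 0.0503 and 0.213). With the block 2 were lower (20%, against 6.01% of all genes), Acss2 and Elovl7, another elongase (−0.60, adjusted p = 0.0196). The 2 higher with it (20%, against 5.95% of all genes) were the elongase Elovl1 and the citrate carrier Slc25a1 (0.35 and 0.33, adjusted p = 0.0294 and 0.0282).

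Uptake, binding and storage held the largest difference. Plin2 read 9.55, 9.53 and 9.62 in HDM and 8.40, 8.63 and 8.54 in PBS. The HDM values lay within 0.1 of each other and all far above PBS. Plin2 rose 2.06-fold (1.04 ± 0.10, adjusted p = 0.00249), and with any 1 array left out it rose by 0.98 to 1.10 (adjusted p of up to 0.0192).

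Fabp5, a fatty acid binding protein of activated and tissue T cells, read 7.97, 7.69 and 7.57 in HDM and 7.09, 7.32 and 7.06 in PBS with its brightest probe set. The groups did not overlap, and the difference of 0.59 ± 0.13 just missed the threshold (adjusted p = 0.0525, 0.0195 with the block, 0.0269 without HDM replicate 3). A pair of dimmer probe sets named Fabp5 read 7.47 to 7.87 in HDM and 6.01 to 6.47 in PBS. These differed by 1.37 and 1.46 (adjusted p = 0.00709 and 0.00645 over all probe sets), while the fourth and dimmest differed by 0.55 ± 0.55. The mean of all 4 passed (0.99 ± 0.16, adjusted p = 0.0166), so the call for Fabp5 depended on the probe set. Whether these probe sets also bind transcripts of related copies was not tested.

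Fabp4, the fatty acid binding protein of adipocytes, macrophages and endothelium, read 6.27, 6.26 and 5.70 in HDM and 4.96, 5.69 and 5.78 in PBS. HDM replicate 3 lay inside the PBS range, and the difference of 0.59 ± 0.24 did not pass (adjusted p = 0.241). Cd36, a scavenger receptor for fatty acids, differed by −0.01 with a 95% interval of −0.91 to 0.89. Its value was 7.83 in PBS replicate 1 and 8.77 to 9.42 in the other 5 arrays. Lpl, the lipoprotein lipase, differed by 0.24 ± 0.13, and Dgat1 and Dgat2, which make triglyceride, by 0.0053 and −0.08 with intervals of −0.76 to 0.77 and −0.80 to 0.63.

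**Figure D3:**
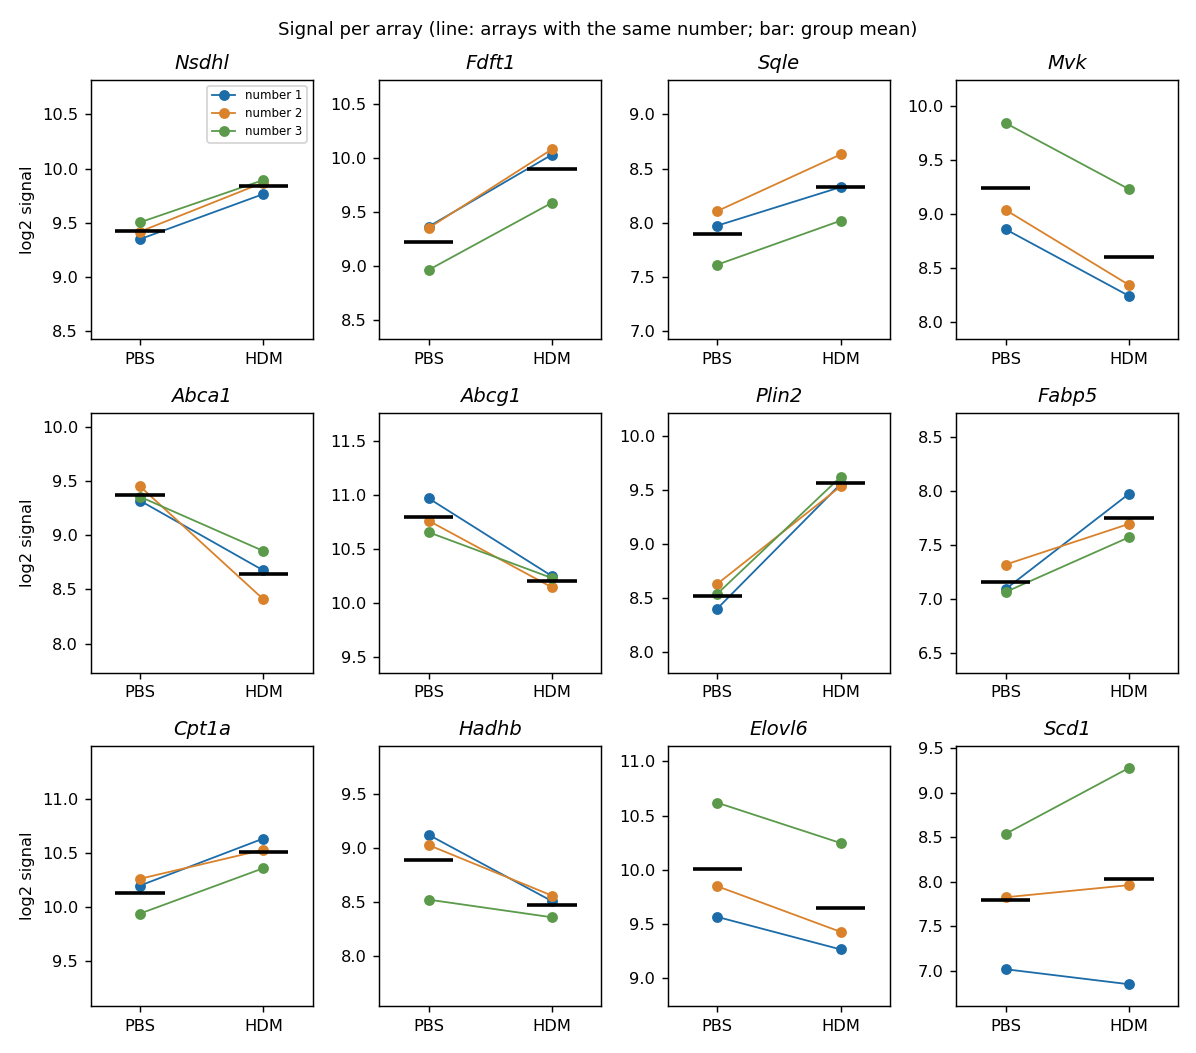
Log2 signal per array (y axis, a separate range in each panel) of 12 members in PBS and HDM; lines join arrays with the same replicate number and black bars are group means (n = 3). Plin2, Nsdhl, Fdft1 and Fabp5 lie higher and Abca1 and Abcg1 lower in all HDM arrays than in all PBS arrays, while Mvk, Elovl6 and Scd1 show the high arrays numbered 3.

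Genes of other cells moved beside this branch and the exporters, and in a sorted bulk sample fewer cells of a type and less RNA per cell cannot be told apart. Macrophages are known for high levels of Plin2, Fabp4, Fabp5, Cd36, Lpl, Abca1 and Abcg1. Of 18 measured macrophage markers 4 rose (Retnla, Mmp12, Chil3 and Itgax; 22.2%, against 2.39% of all genes), 14 did not pass and none fell. With the block 7 were higher (38.9%, against 5.95% of all genes), adding the complement genes C1qb (1.22, adjusted p = 0.00312) and C1qa (0.53, adjusted p = 0.0393) and the growth factor receptor gene Csf1r (0.52, adjusted p = 0.0488). Their summed signal, relative to the PBS mean, was 1.74 to 2.08 in HDM and 0.89 to 1.18 in PBS, and 15 of the 18 differences were above 0. Of the markers that passed in neither fit, Adgre1, which the sort selected against, differed by 0.39 and C1qc by 0.67. Cd68 and Siglecf differed by 0.20 and 0.03, and Car4, Marco and Cd14 lay lower in HDM (−0.76, −0.18 and −0.14). The rise was thus not shared by all markers, and this list, too, was chosen with earlier results of these data known.

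Of 8 endothelial markers 1 fell (12.5%, against 1.56% of all genes), Pecam1, which T cells also express, and all 8 differences were below 0. With the block 4 of the 8 were lower (against 6.01% of all genes), adding Cdh5 (−0.90), Kdr (−0.57) and Tek (−1.06), and the sum was 0.547 to 0.874 in HDM and 0.812 to 1.12 in PBS. The 7 fibroblast markers gave 0 calls without the block (limma, 1 at an unadjusted p below 0.05), and all 7 differences were below 0. With the block 3 were lower (42.9%, against 6.01% of all genes), namely Inmt (−1.66), Dcn (−0.90) and Pdgfra (−0.76). The sum was 0.451 to 0.847 in HDM and 0.541 to 1.47 in PBS. The 5 adipocyte markers gave 0 calls (limma, 0 at an unadjusted p below 0.05), with sums of 0.959 to 1.01 in HDM and 0.975 to 1.04 in PBS. The part of such cells in the member differences was not tested.

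Among 14 other genes of uptake, storage and lipolysis, 1 rose and 1 fell (7.14% each, against 2.39% and 1.56% of all genes). With the block 2 were higher (14.3%, against 5.95% of all genes) and 1 was lower (7.14%, against 6.01%). The block added Agpat2, an acyltransferase of phosphatidate synthesis, to those higher (0.32, adjusted p = 0.178, 0.0399 with the block). Hilpda, a lipid droplet protein that inhibits the triglyceride lipase encoded by Pnpla2, read 9.47, 9.68 and 9.95 in HDM and 8.62, 8.74 and 8.48 in PBS. No values overlapped, and Hilpda rose 2.13-fold (1.09 ± 0.14, adjusted p = 0.00705), a call that held in each of the 6 fits lacking 1 array (highest adjusted p 0.0446). Lpin1, a phosphatidate phosphatase, read 9.34, 9.22 and 9.38 in HDM and 9.75, 9.65 and 9.84 in PBS. It fell by 0.43 (SE 0.09, adjusted p = 0.0475), and leaving out an array lost this call in 5 of 6 cases, all except HDM replicate 3 (highest adjusted p 0.189). Pnpla2 differed by −0.21 (adjusted p = 0.216).

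Pparg encodes a lipid-sensing nuclear receptor. It was the 1 of 8 measured genes of its list to pass without the block (12.5%, against 2.39% of all genes). Rxra, the gene of a receptor that pairs with it, was also higher with the block (0.34, adjusted p = 0.0965, 0.0353 with the block). That made 2 of the 8 higher with the block (25%, against 5.95% of all genes). Pparg read 10.43, 10.25 and 9.39 in HDM and 7.78, 7.57 and 7.13 in PBS. The groups lay far apart, with both arrays numbered 3 the low ones (2.53 ± 0.28, adjusted p = 0.00435). Ppara and Ppard, its relatives, differed by −0.04 and −0.40 and did not pass.

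The 2 measured acyl-CoA synthetases, which activate fatty acids, did not pass in either fit (limma; 0 at an unadjusted p below 0.05). Acsl4 read 10.59, 10.47 and 10.55 in HDM and 10.50, 10.53 and 10.42 in PBS, overlapping groups with a difference of 0.06 (95% interval −0.12 to 0.24). Acsl5 read 10.12, 10.15 and 9.85 in HDM and 10.02, 10.01 and 9.67 in PBS, with both arrays numbered 3 low (0.14 ± 0.13, adjusted p = 0.651).

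Fatty acid oxidation gave 0 calls among 6 members (limma, 3 had an unadjusted p below 0.05). With the block 1 was higher (16.7%, against 5.95% of all genes) and 2 were lower (33.3%, against 6.01%). Cpt1a, the carnitine palmitoyltransferase that admits long-chain fatty acids to mitochondria, read 10.63, 10.53 and 10.36 in HDM and 10.20, 10.26 and 9.94 in PBS. The groups did not overlap (0.37 ± 0.11, adjusted p = 0.131, 0.0144 with the block). Acadm, the medium-chain dehydrogenase, went the other way, with 9.93, 9.87 and 9.76 in HDM and 10.19, 10.25 and 10.07 in PBS. All its HDM values lay below PBS (−0.32 ± 0.09, adjusted p = 0.106, 0.0242 with the block).

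Hadhb, the beta subunit of the mitochondrial trifunctional protein, read 8.51, 8.56 and 8.36 in HDM and 9.12, 9.03 and 8.52 in PBS. PBS replicate 3 lay within the HDM range, and the difference was −0.41 ± 0.16 (adjusted p = 0.226, 0.0415 with the block). Without that PBS array Hadhb passed (−0.60, adjusted p = 0.0352). Its partner Hadha, the alpha subunit, differed by 0.08 with a 95% interval of −0.12 to 0.28. Acadvl, the very-long-chain dehydrogenase, differed by 0.10, and Cpt2, the inner-membrane partner of Cpt1a, by 0.26 ± 0.15 (adjusted p = 0.424).

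Of 15 other measured oxidation genes 2 rose (13.3%, against 2.39% of all genes) and 13 did not pass. Above 0 lay 12 differences (80%, against 48.4% of all genes), with a median of 0.23 over the 15. Acot7, an acyl-CoA thioesterase, read 9.42, 9.45 and 9.37 in HDM and 8.40, 8.42 and 8.55 in PBS, a rise of 1.94-fold (0.96 ± 0.09, adjusted p = 0.00274). Etfb, a subunit of the flavoprotein that takes electrons from acyl-CoA dehydrogenases, read 9.82, 9.95 and 9.84 in HDM and 9.15, 9.25 and 9.17 in PBS. It rose 1.60-fold (0.68 ± 0.09, adjusted p = 0.0069), while Etfa, which encodes its partner subunit, differed by 0.16 (adjusted p = 0.477). The groups did not overlap for Acot7 or Etfb, and both calls held in each of the 6 fits that lacked 1 array (highest adjusted p 0.0244 and 0.0459). With the block 5 of the 15 were higher (33.3%, against 5.95% of all genes) and none was lower, adding Acads, Hadh and Eci1.

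**Figure D4:**
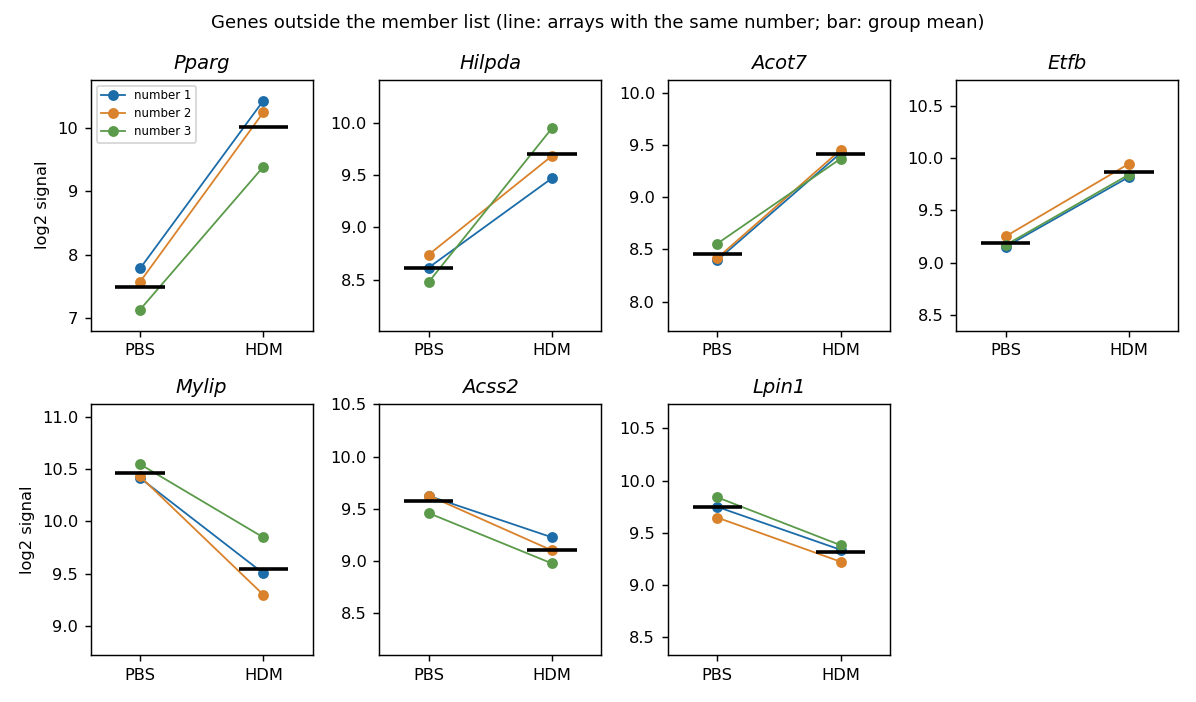
Log2 signal per array (y axis, a separate range in each panel) of the 7 genes outside the member list that passed, in PBS and HDM; lines join arrays with the same replicate number and black bars are group means (n = 3). Pparg, Hilpda, Acot7 and Etfb are higher and Mylip, Acss2 and Lpin1 lower in every HDM array than in every PBS array.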

How the data were processed

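RNA of 6 samples, 3 HDM and 3 PBS, was measured on Affymetrix mouse gene arrays. The authors deposited log2 signals for each probe set; RMA is the tool that the submitters' processing notes name, with no version. RMA equalises array distributions, so a change in total RNA per cell cannot be seen. Of 33960 probe sets, 23521 had 1 gene symbol, 1814 several and 8625 none here; 1082 genes had several such probe sets, of which the brightest on average stood for the gene, which gave 22180 genes.

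HDM minus PBS was tested with limma 3.58.1 in R 4.3.3 (lmFit, eBayes with intensity trend), two-sided, Benjamini-Hochberg over all 22180 genes, threshold 0.05. The fit without the block was run on simulated data with independent noise in each array. That simulation held no shared deviation of same-numbered arrays and did not cover the block. SEs and intervals (95%) use limma's moderated spread. Any pair of arrays shared at most 5 identical values.

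The members and lists were chosen with earlier results of these data known. Array values are given for members that passed, differed by at least 0.5 or were among the 2 largest differences of a branch; values for Sqle, Sc5d, Acadm and Scd1, and genes of the other lists that did not pass without the block, were picked after the values were seen. Replicate numbers were treated as pairs because deviations from the group means correlated at 0.43, 0.17 and 0.53 for same-numbered arrays (over genes, which are not independent). PBS replicate 1 and HDM replicate 2 correlated at 0.25, above the pair numbered 2, so the number 2 is not set apart from 1. The pairing rests on the data, since the labels do not state what a number stands for. Motifs were searched in RefSeq promoter windows (250 bases, GRCm38.p6). Alternatives were filters, normalizations, variance models, array weights, probe set rules, the block, thresholds and left-out arrays. Fitting the block without the arrays of 1 number was added after seeing the data.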

Additional observations from a re-analysis of the deposited data

How the results depend on the processing

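The rise of Plin2 kept its direction and its side of the threshold under all alternatives for which single genes were kept. Under these the rise of Nsdhl and the falls of Abca1 and Abcg1 kept their direction. For the added fits of the block only counts were kept. Against 2 members higher and 2 lower, the counts were 4 and 4 with array weights, 7 and 7 with the replicate block, and 8 and 6 without both arrays numbered 3; 4 were higher with genes above the median signal only and at a threshold of 0.1, 1 was higher with all probe sets tested, and 1 was higher and 0 lower at a threshold of 0.01 (limma; 15 members had an unadjusted p below 0.05). With any 1 array left out, 1 to 3 were higher and 0 to 3 lower. No share of all genes called was set beside the counts for array weights, the median filter, all probe sets, the other thresholds or single left-out arrays. Those counts therefore do not speak to the members in particular. In the added fits of the block, 1 was lower without both arrays numbered 1, 5 were higher without those numbered 2, and 11 were higher and 7 lower without those numbered 3.

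Of the other pathway genes, 4 higher and 3 lower, the counts were 8 and 5 with array weights, 15 and 6 with the replicate block, 10 and 5 at a threshold of 0.1 and 12 and 7 without both arrays numbered 3; 1 was lower after centring on array medians and with all probe sets tested, and 0 were lower at a threshold of 0.01. With 1 array left out, 4 to 7 were higher and 0 to 2 lower. Apart from the block and the fit without both arrays numbered 3, these counts, too, have no share of all genes beside them. They do not speak to these genes in particular. With 1 array left out the branch medians ranged from 0.21 to 0.31 for cholesterol synthesis enzymes and from −0.24 to 0.024 for fatty acid synthesis, desaturation and elongation.

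The members that changed sign passed with that sign in no fit for which single genes were kept. With quantile normalization repeated Pmvk was −0.0030 and Srebf1 0.011; with array weights Srebf1 was 0.042 and Dgat1 −0.047. Without both arrays numbered 3 Pmvk was −0.012, Insig1 −0.042, Srebf1 0.095, Scd1 −0.016, Fads2 0.094, Cd36 0.18 and Dgat1 −0.079. With 1 array left out the differences ranged from −0.039 to 0.24 for Hmgcs1, −0.0032 to 0.043 for Pmvk, −0.014 to 0.13 for Insig1, −0.063 to 0.083 for Srebf1, −0.021 to 0.037 for Acly, −0.39 to 0.83 for Scd1, −0.42 to 0.22 for Fads2, −0.54 to 0.26 for Cd36, −0.34 to 0.27 for Dgat1 and −0.43 to 0.14 for Dgat2. The cause of these changes was not tested.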

Other observations

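The array number went with the level of many genes in both groups, several lipid genes among them. The arrays numbered 3 were the highest of both groups in 10 of the 42 measured members, among them Scd1, Elovl6, Mvk, Dgat1 and Dgat2, and the lowest of both groups in 16, among them Fdft1, Sqle, Sc5d and Cpt1a. Over all genes the shares were 19.1% and 22.7%. Dgat1 read 11.94 and 11.76 on the HDM and PBS arrays numbered 3 and 10.75 to 11.18 on the other 4. Dgat2 read 8.13 and 7.85 on those arrays and 6.98 to 7.61 on the others. The summed signals of the neutrophil markers, relative to the PBS mean, were 1.2 and 1.4 on the HDM and PBS arrays numbered 3 and 0.767 to 0.874 on the others, and those of the B cell markers were 2 and 1.24 against 0.784 to 1.13. The part of such cells in the levels of Scd1, Elovl6, Mvk, Dgat1 and Dgat2 was not tested.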
